A study of Mus musculus with 12 samples.

Results

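The comparison concerns 6 pituitary glands out of the 12 profiled, namely the vehicle glands, which were sorted by their own level of Pax7 mRNA. The low-Pax7 side held the glands with a normalised count of Pax7 under 500 (vehicle 1, 4 and 6), and the high-Pax7 side held those at 500 or more (vehicle 2, 3 and 5). All glands came from adult male mice labelled wild type, F1 of C57BL/6J and 129S1/SvlmJ. They had been injected as zygotes, cultured, and transferred to CD1 recipient dams. Both sides had received nuclease-free water as vehicle, and the 6 mimic glands that were set beside them had received a let-7f-5p microRNA mimic in the same water. RNA of the whole gland was sequenced after removal of ribosomal RNA, with 1 library per gland, and the labels do not tie a gland to a litter or a dissection.

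The pituitary joins lobes of different origin. The anterior lobe makes growth hormone, prolactin, thyrotropin and the gonadotropins. The thin intermediate lobe is made up mostly of melanotrophs, in which the transcription factor Pax7 selects the melanotroph over the corticotroph fate, Pomc encodes the hormone precursor, and the convertase encoded by Pcsk2 cuts that precursor into melanocyte-stimulating hormone and related peptides. The posterior lobe grows from the floor of the brain and holds glial pituicytes around the axon endings of oxytocin and vasopressin neurons. How much of the intermediate and posterior lobes stays with a gland can differ between dissections.

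Pax7 had 145.2, 431.0 and 85.1 normalised counts in low-Pax7 glands 1, 4 and 6, against 1135, 861.8 and 1783 in high-Pax7 glands 2, 3 and 5. Those closest to the threshold of 500 were vehicle 4 at 431.0 and vehicle 3 at 861.8. Pax7 thus ranged 20.9-fold over the vehicle glands. In the mimic glands it ranged 3.27-fold, between 587.5 and 1924 normalised counts with a median of 1180, and 0 mimic glands were under 500. The sides were chosen by these values, which support nothing else. Recovered reads per library lay between 26378308 and 37061136 over all 12 libraries. They averaged 29063100 ± 3370130 in low-Pax7 glands and 33180200 ± 1651020 in high-Pax7 glands (SD, n = 3 each). An exact permutation test, two-sided, gave p 0.3, or 0.3 after adjustment over the 2 values tested this way, and 3 glands against 3 cannot go below 0.1.

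Because the sides were set by a transcript of the same libraries, the comparison of the sides describes which other transcripts followed Pax7, and it is no test of a condition. A gene is called here where limma-trend on log2(normalised count + 1) gave a Benjamini-Hochberg adjusted p under 0.05 over all 18347 genes tested. Of these, 79 were called lower (0.431%) and 2 were called higher (0.0109%) in low-Pax7 glands, with Pax7 left out. The sides did not overlap for 1373 genes in the lower direction (7.48%) and for 1217 in the higher direction (6.63%). For 97.5% of the genes tested the sides differed by less than 2-fold on the log2(value + 1) scale. Among the remainder, 385 genes were at least 2-fold lower and 77 at least 2-fold higher in low-Pax7 glands. The difference lay below 0 for 49.9% of all genes tested.

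The number of calls rested on single glands. Without vehicle 1, vehicle 5 or vehicle 6 there were 0 genes called lower, and without vehicle 3 there were 3, while 151 were called without vehicle 2 and 110 without vehicle 4. The genes called higher numbered 1, 5, 1, 2, 0 and 1 without vehicle 1 to vehicle 6. Without vehicle 5, where limma called 0 genes in either direction, 1073 genes had a raw p under 0.05 (raw meaning before adjustment). With all glands that number was 1743, or 9.5% of all genes tested, of which 1112 were lower (6.06%) and 631 higher (3.44%). Counts of genes at a raw p in the lists below are to be read against these shares. All of the 79 that were still tested stayed below 0 in each of these fits, 79 of them without vehicle 1, 4 or 6 and 71 without vehicle 2, 3 or 5. Their directions could not change, since the sides did not overlap for any of the 79, so the kept sign adds no support. On the recovered reads edgeR called 80 lower (0.436%) and 2 higher, and DESeq2 called 406 lower (2.35% of 17269 with an adjusted p) and 97 higher (0.562%). The share of calls in the higher direction was 19.3% with DESeq2 and 2.44% with edgeR. Of the genes given below as not called, DESeq2 called Tbx19, Drd2, Gh, Chgb, Gabrg1, Gabra3, Sstr3, Cdh13, Sema3e, Tnfaip3, Rtp1, Ror2, Esm1, Flt1, Lum, Col1a1, Csf1r, Cx3cr1, Sox9, Prrx1, Egr2 and Egr3, each in the direction given.

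Treating Pax7 as a continuous covariate in the vehicle glands, in place of 2 sides, called 63 genes lower, of which 26 were among the 79, and 0 higher. Pomc, Oacyl, Pcsk2, Rbfox3, Scn7a, Frem3, Fndc3c1 and Gpr50 were called that way too. Col25a1, Rax, Gja1 and the other 9 of the 15 largest decreases were not, nor were Zeb1 and Ccdc116. Quantile normalisation called 40 genes lower, all of them among the 79. Pomc, Rax, Gja1, Gulo, Fndc3c1, Gpr50 and Cdh19 were among those it did not call.

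Transcripts of melanotrophs were lower in low-Pax7 glands. Pomc had 45286, 93810 and 50197 normalised counts in low-Pax7 glands 1, 4 and 6, against 186988, 252306 and 400805 in high-Pax7 glands 2, 3 and 5. The highest low-Pax7 gland for Pomc was vehicle 4, the gland closest to the threshold, and the sides did not overlap. The log2 difference of Pomc was -2.16 (SE 0.32). Pomc took 0.149%, 0.290% and 0.160% of the summed counts in low-Pax7 glands 1, 4 and 6, against 0.638%, 0.80% and 1.32% in high-Pax7 glands 2, 3 and 5. In RNA of a whole gland, fewer cells of a type and less RNA per cell cannot be told apart. Corticotrophs of the anterior lobe also express Pomc, so its level sums over both cell types.

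Pcsk2 had 4178, 5569 and 4297 normalised counts in low-Pax7 glands 1, 4 and 6, against 10185, 11007 and 17788 in high-Pax7 glands 2, 3 and 5 (log2 difference -1.44, SE 0.21). Oacyl, which encodes an acyltransferase-like membrane protein, had 712.2, 1426 and 591.5 in low-Pax7 glands 1, 4 and 6, against 5478, 5569 and 10512 in high-Pax7 glands 2, 3 and 5 (log2 difference -3.02, SE 0.35). For both, as for Pomc, vehicle 4 was the highest of the low side and vehicle 5 the highest of the high side. Rbfox3, the gene of the neuronal splicing factor NeuN, had 17.6, 29.4 and 13.4 in low-Pax7 glands 1, 4 and 6, against 323.0, 108.6 and 241.5 in high-Pax7 glands 2, 3 and 5 (log2 difference -3.35, SE 0.43). Its highest value was in vehicle 2 instead.

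**Figure D1:**
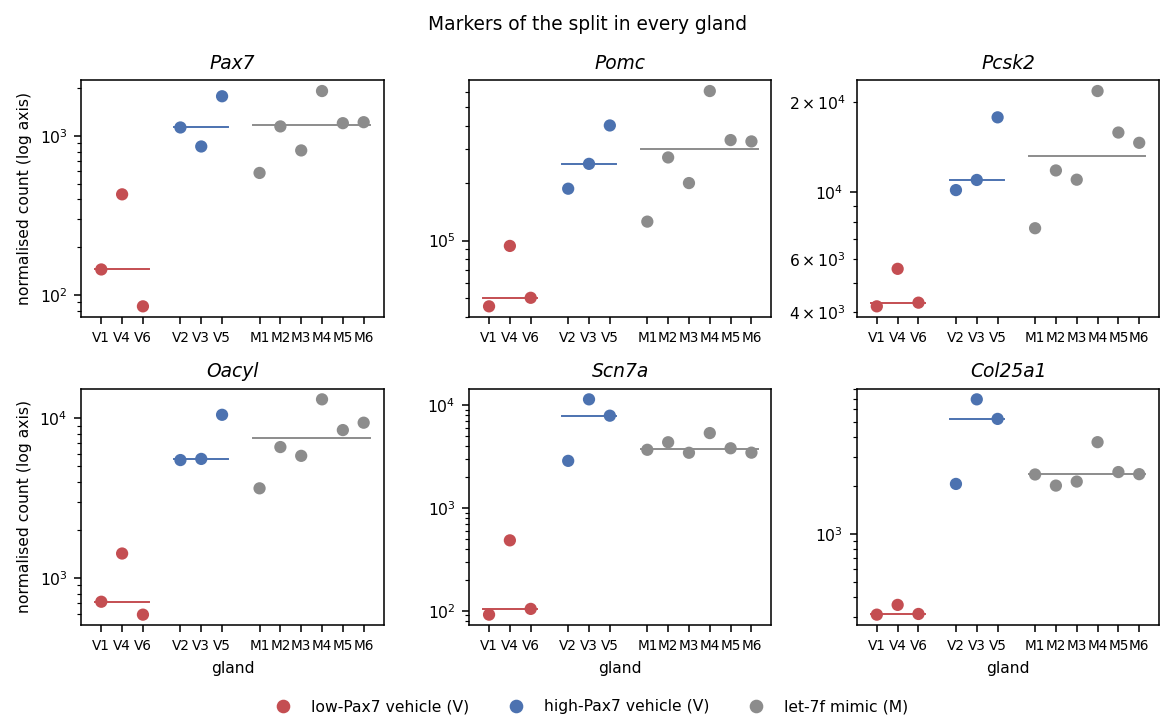
Normalised counts of Pax7 and the 5 other markers (log axes) in every gland, with low-Pax7 vehicle glands in red, high-Pax7 vehicle glands in blue and mimic glands in grey; lines are medians. Scn7a was at 91.6 to 484.8 in low-Pax7 glands and at 2884 to 11463 in high-Pax7 glands, and the 6 mimic glands stood within the span of the high-Pax7 glands for Scn7a.

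The melanotroph list held 10 genes beside Pax7. Of these, 4 were called lower and 0 higher, and 7 lay below 0, with a median log2 difference of -0.70 against 0.000412 over all genes tested. Tbx19, the T-box factor that switches on Pomc, had a log2 difference of -0.77 (SE 0.14) and was not called. Drd2, the dopamine receptor through which melanotrophs and lactotrophs are held back, had -0.63 (SE 0.16) and was not called either. The list members that are common to most secretory cells of the gland, Scg5, Pam and Pcsk1n, had differences between -0.13 and 0.20. Neurod1 had the highest difference of the list, 0.229, opposite in direction to Pomc, and was not called. Without vehicle 1, 5 or 6 the list had 0 calls and without vehicle 3 it had 1, with medians from -0.56 to -0.82 over the 6 fits that each left out a vehicle gland.

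Transcripts of pituicytes were lower in low-Pax7 glands as well. Scn7a, the gene of an atypical sodium channel that senses sodium in glia, had 91.6, 484.8 and 104.2 normalised counts in low-Pax7 glands 1, 4 and 6, against 2884, 11463 and 7945 in high-Pax7 glands 2, 3 and 5. The lowest high-Pax7 gland was thus several times above the highest low-Pax7 gland, and the log2 difference was -5.25 (SE 0.67). Col25a1, which encodes a transmembrane collagen, had 311.7, 358.7 and 314.8 in low-Pax7 glands 1, 4 and 6, against 2048, 6924 and 5224 in high-Pax7 glands 2, 3 and 5 (log2 difference -3.68, SE 0.38). In both genes vehicle 3 was the highest gland, while Pax7 and Pomc were highest in vehicle 5. Vehicle 3 also had the highest summed level of the vehicle glands for several other cell types. For the oligodendrocyte list it was 4147 normalised counts, against 1980 to 2284 in the other 5 glands, and for the erythrocyte list 49536, against 10852 to 30466. The fibroblast sum was 24306 in vehicle 3, against 19601 at most in the others, the immune sum 8866 against 7548, the endothelial sum 13158 against 12117 and the pericyte sum 11476 against 8549. Their part in the values of vehicle 3 was not tested.

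The pituicyte list held 15 genes. Of these, 4 were called lower (Scn7a, Col25a1, Rax and Gja1) and 0 higher, and all 15 lay below 0. For 9 the sides did not overlap, all in the lower direction, where 7.48% of all genes tested did so. The median log2 difference of the list was -0.94. Rax, a homeodomain factor of tanycytes and pituicytes, had 19.4, 20.8 and 25.8 normalised counts in low-Pax7 glands 1, 4 and 6, against 87.2, 410.1 and 193.9 in high-Pax7 glands 2, 3 and 5 (log2 difference -3.07, SE 0.49). The gap junction gene Gja1 had 437.5, 461.6 and 433.5 in low-Pax7 glands 1, 4 and 6, against 692.7, 947.1 and 944.5 in high-Pax7 glands 2, 3 and 5 (log2 difference -0.94, SE 0.15). Its low-Pax7 glands were nearly level, while vehicle 2 held less than vehicle 3 and 5. Lhx2 (-5.13, SE 0.98), the glial filament gene Gfap (-2.46, SE 0.57) and the adrenomedullin gene Adm (-2.40, SE 0.45) had large log2 differences with large errors and were not called. A pseudocount of 5 called Lhx2, and DESeq2 called Gfap and Adm. Leaving out vehicle 1, 3, 5 or 6 left 0 calls in the list, and its median stayed between -1.09 and -0.86 over the 6 fits that each left out a vehicle gland.

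**Figure D2:**
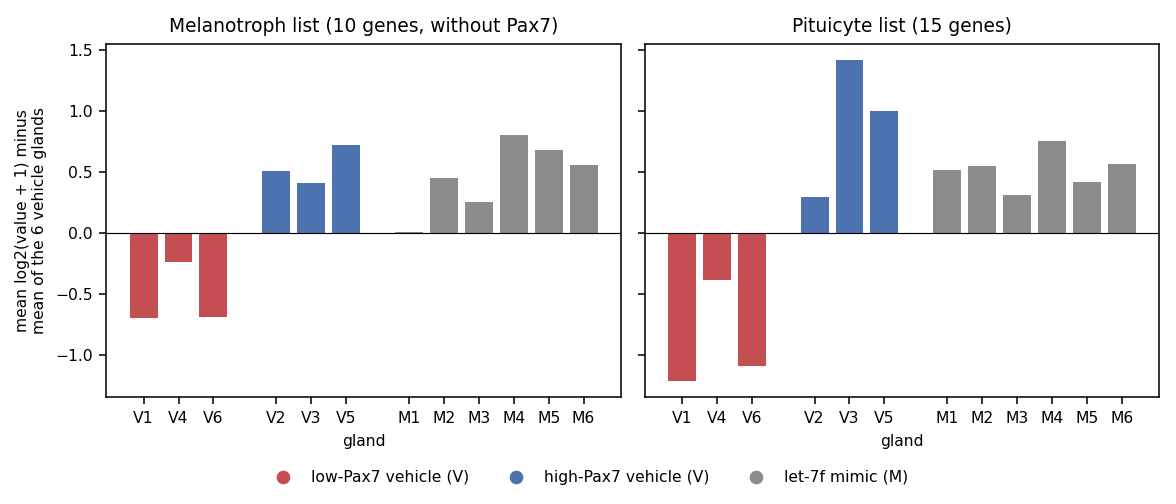
Mean log2(normalised count + 1) of the melanotroph list and of the pituicyte list in each gland, minus the mean over the 6 vehicle glands, with low-Pax7 glands in red, high-Pax7 glands in blue and mimic glands in grey. For the melanotroph list the high-Pax7 glands lay between 0.41 and 0.72, and for the pituicyte list between 0.29 and 1.42.

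On the log2 scale and relative to the mean of the vehicle glands, the melanotroph list stood at -0.70, -0.24 and -0.69 in low-Pax7 glands 1, 4 and 6, against 0.51, 0.41 and 0.72 in high-Pax7 glands 2, 3 and 5. The pituicyte list stood at -1.22, -0.39 and -1.10 in low-Pax7 glands 1, 4 and 6, against 0.29, 1.42 and 1.00 in high-Pax7 glands 2, 3 and 5. Vehicle 3 was the lowest of the high side by the first list and the highest by the second. The first order depends on the summary: by summed counts of the melanotroph list vehicle 2 was the lowest of the high side, at 263753 against 333039 in vehicle 3, as it was for Pomc and Pcsk2. Of the 79 genes called lower, 43 had their highest value of the high side in vehicle 3 (54.4%, against 38.4% of all genes tested), 32 in vehicle 5 (40.5%, against 27.8%) and 4 in vehicle 2. Whether vehicle 3 is higher than its neighbours was not tested, since a single gland has no replicate.

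The genes listed for the axon endings of the posterior lobe had log2 differences of both signs, from -4.68 to 0.42. The list of 14 genes held 13 that passed the filter, and 0 of them were called by limma or edgeR, against 1 called lower by DESeq2. At a raw limma p under 0.05 there were 2 lower and 0 higher, and the median log2 difference was -0.04. The oxytocin gene Oxt was listed at 0, 12.2 and 4.48 normalised counts in low-Pax7 glands 1, 4 and 6, against 52.3, 208.4 and 108.2 in high-Pax7 glands 2, 3 and 5. The sides did not overlap, but the log2 difference of -4.68 had an SE of 0.89, and it was called only with a pseudocount of 5 and with DESeq2. Gad2, which makes the transmitter GABA, had -0.52 (SE 0.15), with sides that did not overlap, and was not called. In low-Pax7 glands 1, 4 and 6 Gad2 had 403.3, 328.1 and 462.6 normalised counts and Tubb3, also on the list, had 1029, 1042 and 1228, well above Oxt. The median of the list therefore cannot be read as a measure of axon endings alone.

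The 15 largest called decreases by the rule for named genes spanned log2 differences from -6.36 to -3.28. Their leaders were low to absent on the low side. Of the 79 genes called, 8 were under 10 normalised counts in every low-Pax7 gland, among them Frem3 and Gpr50, and so passed the filter through the high-Pax7 glands alone. Such genes had to differ. Frem3, a gene of the extracellular matrix, had 0.925, 4.90 and 0 normalised counts in low-Pax7 glands 1, 4 and 6, against 91.8, 287.9 and 235.5 in high-Pax7 glands 2, 3 and 5 (log2 difference -6.36, SE 0.68). Gpr50, an orphan receptor related to melatonin receptors that tanycytes express, had 0, 6.12 and 0 in low-Pax7 glands 1, 4 and 6, against 45.0, 228.8 and 129.0 in high-Pax7 glands 2, 3 and 5. Fndc3c1 had 7.40, 155.5 and 19.0 in low-Pax7 glands 1, 4 and 6, against 954.2, 3879 and 2802 in high-Pax7 glands 2, 3 and 5. As with Pomc, vehicle 4 stood highest on the low side in all 3 genes.

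The others included the cadherin gene Cdh19 (-4.18), the transmembrane collagen gene Col23a1 (-4.15) and the glycine decarboxylase gene Gldc (-3.99). The synaptic adhesion gene Lrrtm3 (-3.93), the forebrain homeodomain gene Otx2 (-3.91) and the anion transporter gene Slco1a5 (-3.60) followed. The claudin gene Cldn10 had -3.31, the matrix gene Fbln2 -3.28 and Ism2 -4.57, all as log2 differences. Otx2 had 4.62, 12.2 and 11.2 normalised counts in low-Pax7 glands 1, 4 and 6, against 66.1, 213.3 and 212.1 in high-Pax7 glands 2, 3 and 5. Gldc had 80.5, 109.0 and 58.3 in low-Pax7 glands 1, 4 and 6, against 612.9, 2036 and 1704 in high-Pax7 glands 2, 3 and 5. Among all 79, 69 differed by more than 1 on the log2 scale and 44 by 2 or more.

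**Figure D3:**
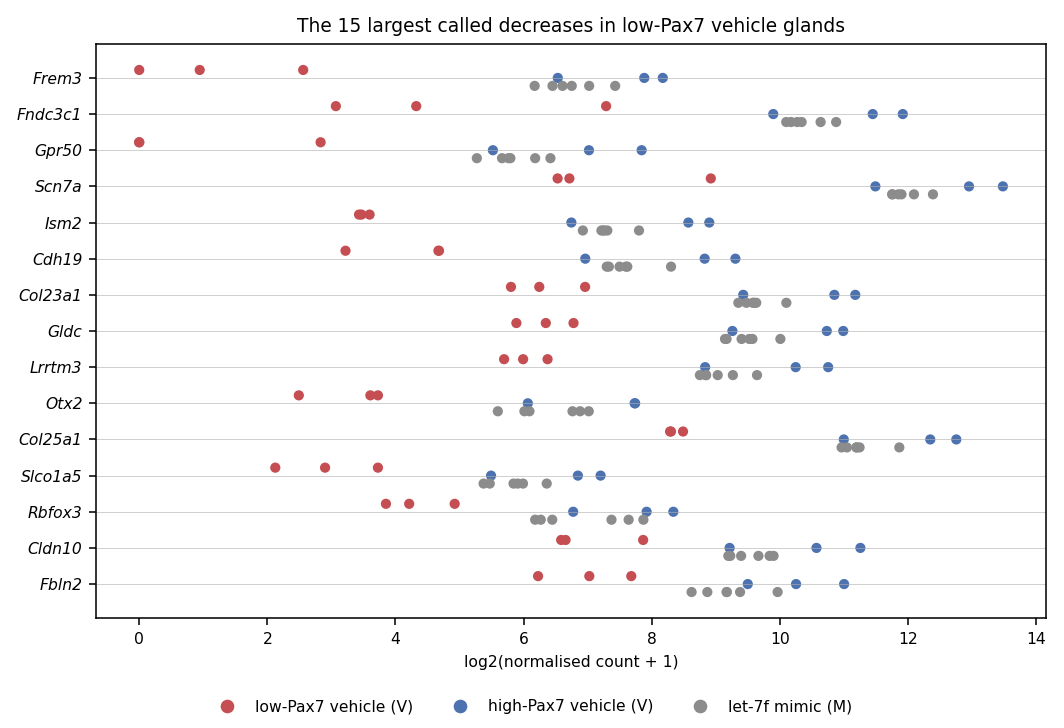
Log2(normalised count + 1) of the 15 named genes with the largest called decreases, 1 row per gene, with low-Pax7 vehicle glands in red (upper), high-Pax7 vehicle glands in blue (middle) and mimic glands in grey (lower). The points of low-Pax7 glands stood left of those of high-Pax7 glands in every row, from Frem3 (log2 difference -6.36) to Fbln2 (-3.28).

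Further genes among the 79 were chosen for naming after their values were seen, for what they are known to do. Rax, Otx2, Tbx3 and Fgf10 all act in the ventral forebrain from which the posterior lobe buds. Tbx3, a T-box repressor, had 55.5, 111.4 and 63.9 normalised counts in low-Pax7 glands 1, 4 and 6, against 210.1, 470.2 and 394.8 in high-Pax7 glands 2, 3 and 5 (log2 difference -2.19, SE 0.35). Fgf10, the growth factor of the infundibulum, had 86.9, 93.0 and 91.9 in low-Pax7 glands 1, 4 and 6, against 446.8, 994.6 and 988.7 in high-Pax7 glands 2, 3 and 5 (log2 difference -3.06, SE 0.29). The 3 low-Pax7 glands were nearly level for Fgf10, while vehicle 2 held less than vehicle 3 and 5. The hedgehog pathway factor Gli3 had a log2 difference of -1.29 (SE 0.21) and the ETS factor Etv1 of -1.37 (SE 0.17). The neurotrophin receptor gene Ngfr had -2.32 (SE 0.34).

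The transcription factor genes Fezf2 (-3.91) and Sall3 (-4.33) were called too, at low counts that passed the filter through the high-Pax7 glands alone: between 0 and 2.24 normalised counts in low-Pax7 glands and between 12.1 and 59.1 in high-Pax7 glands. The same holds for Sprr2a1 and Popdc3. edgeR did not call Fezf2 and Sall3, and DESeq2 gave no adjusted p for either. The keratinocyte envelope gene Sprr2a1 was at 0 in all 3 low-Pax7 glands, against 27.5, 24.2 and 17.3 in high-Pax7 glands 2, 3 and 5. It was also at 0 in mimic 2 and mimic 4, which were not low in Pax7. Popdc3 had 0.925, 1.22 and 0 in low-Pax7 glands 1, 4 and 6, against 17.4, 68.8 and 58.0 in high-Pax7 glands 2, 3 and 5.

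Gene families taken by symbol, also after the calls were seen, gave counts for context. Of 44 collagen chain genes tested, 5 were called lower (Col25a1, Col23a1, Col13a1, Col19a1 and Col9a3) and 0 higher, 35 lay below 0 (79.5%, against 49.9% of all genes), and the median log2 difference was -0.33. Of 16 ionotropic glutamate receptor subunit genes, 3 were called lower and 0 higher, with a median of -0.23. These were the kainate receptor genes Grik1 (-2.52, SE 0.39) and Grik3 (-1.10, SE 0.16) and the AMPA receptor gene Gria3 (-1.38, SE 0.23). Of 10 genes of pore-forming sodium channel subunits, Scn7a and the neuronal Scn2a (-0.93, SE 0.14) were called lower and 0 were called higher. The median of that family was 0.01, and 5 of the 10 lay below 0. In 23 cadherin genes Cdh19 was called lower and 0 were called higher, with a median of -0.28, and the sides did not overlap for 8 in the lower and 3 in the higher direction. In 16 claudin genes Cldn10 was called lower and 0 were called higher, with a median of 0.08, and the sides did not overlap for 1 in the lower and 4 in the higher direction. Over all genes tested the sides did not overlap for 7.48% in the lower and 6.63% in the higher direction. The calcium channel subunit gene Cacnb4 (-2.63, SE 0.31) and the potassium channel gene Kcnh1 (-1.48, SE 0.24) were also among the 79.

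The 2 genes called higher in low-Pax7 glands were Zeb1 and Ccdc116. Zeb1, a zinc finger repressor of epithelial genes, had 3956, 4688 and 5718 normalised counts in low-Pax7 glands 1, 4 and 6, against 2535, 2321 and 2445 in high-Pax7 glands 2, 3 and 5 (log2 difference 0.96, SE 0.13). Ccdc116 had 179.4, 237.5 and 182.6 in low-Pax7 glands 1, 4 and 6, against 83.5, 74.6 and 68.4 in high-Pax7 glands 2, 3 and 5 (log2 difference 1.38, SE 0.19). The next genes by smallest p in that direction were not called. They included Tnfaip3, a brake on NF-kappaB signalling (1.82, SE 0.33), Rtp1 (0.89, SE 0.17) and the Wnt receptor gene Ror2 (0.73, SE 0.14).

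Hormone genes of the anterior lobe lay higher in low-Pax7 glands, without a call. The growth hormone gene Gh had 3390510, 4118190 and 3619510 normalised counts in low-Pax7 glands 1, 4 and 6, against 2541730, 2457500 and 2890310 in high-Pax7 glands 2, 3 and 5. The sides did not overlap, and the log2 difference was 0.50 (SE 0.15). Limma and edgeR did not call it, and quantile normalisation gives no value for it, since the top-ranked gene is set level in every gland. The prolactin gene Prl (0.37, SE 0.15), the thyrotropin gene Tshb (0.58, SE 0.24), the gonadotropin genes Lhb (0.53, SE 0.26) and Fshb (0.32, SE 0.28) and their shared subunit gene Cga (0.54, SE 0.22) had log2 differences above 0 with overlapping sides. Of these 6 genes limma and edgeR called 0, DESeq2 called 1 higher, and 4 had a raw limma p under 0.05. Without vehicle 4 the median of the 6 was 0.31, against 0.51 with all glands.

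**Figure D4:**
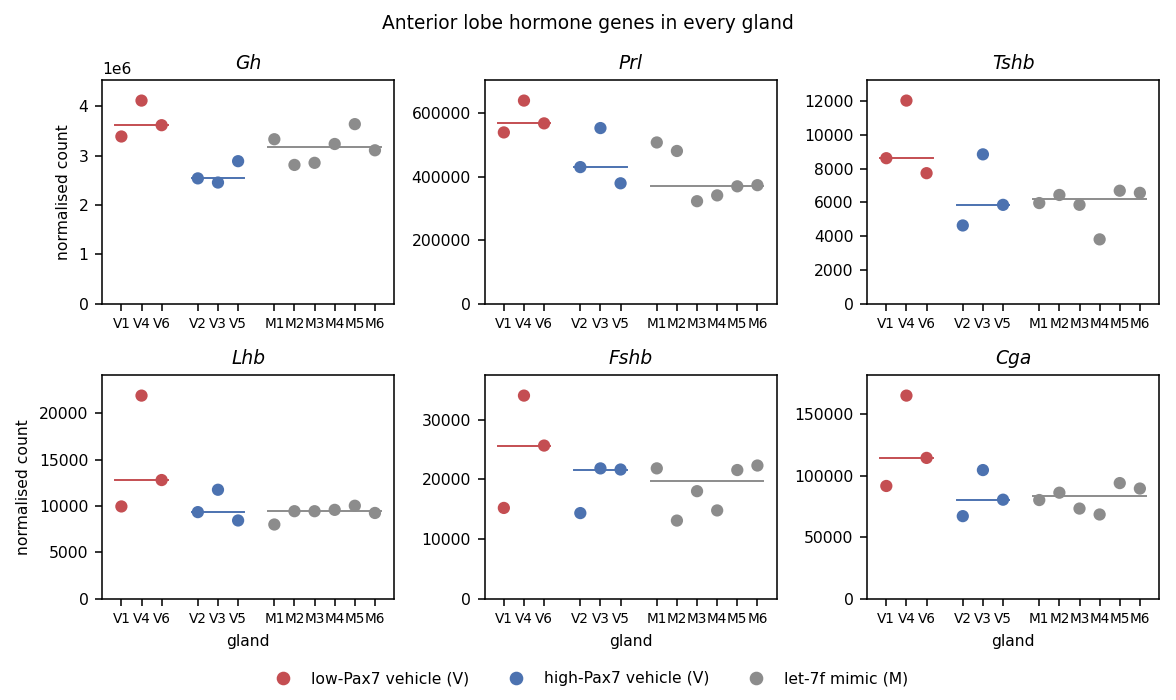
Normalised counts of the 6 anterior lobe hormone genes (linear axes from 0) in every gland, with low-Pax7 vehicle glands in red, high-Pax7 vehicle glands in blue and mimic glands in grey; lines are medians. Gh was at 3390510 or more in the low-Pax7 glands and at 2890310 or less in the high-Pax7 glands, while the sides overlapped for the other genes.

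Together the 6 hormone genes took 13.4%, 15.5% and 13.9% of the summed counts in low-Pax7 glands 1, 4 and 6, against 10.5%, 10.0% and 11.2% in high-Pax7 glands 2, 3 and 5. The means were 14.2% ± 1.09 in low-Pax7 glands and 10.5% ± 0.578 in high-Pax7 glands (SD, n = 3 each). The p of an exact permutation test, two-sided, was 0.1, the smallest that 3 against 3 can give, and 0.2 after adjustment over the 2 values. The mimic glands lay between 10.9% and 13.2%. Shares within 1 library are not independent of each other.

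Among the lists of anterior lobe cell types, limma and edgeR called 0 genes. The somatotroph list had 9 genes, all above 0 with a median log2 difference of 0.32. DESeq2 called 2 of them higher, and 5 had a raw limma p under 0.05. The ghrelin receptor gene Ghsr had 0.80 (SE 0.29) and the somatostatin receptor gene Sstr3 0.38 (SE 0.10), neither of them called. Medians were 0.16 for the 7 lactotroph genes, 0.29 for the 11 gonadotroph genes and 0.11 for the 7 thyrotroph genes. In these lists 2, 2 and 3 genes had a raw limma p under 0.05, of which 1, 0 and 1 were lower in low-Pax7 glands. DESeq2 called 1 lactotroph gene lower, Drd2, which is also on the melanotroph list, and 0 genes of the gonadotroph and thyrotroph lists. Nr5a1, the steroidogenic factor of gonadotrophs, had 0.40 (SE 0.12) and was not called.

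Genes of the machinery that secretory cells share were not lower in low-Pax7 glands as a group. Of 15 genes of prohormone processing, Pcsk2 alone was called, 11 lay above 0, and the median log2 difference was 0.16. DESeq2 called 1 lower and 1 higher. At a raw limma p under 0.05 there were 1 lower and 3 higher, where 6.06% and 3.44% of all genes were. The summed list was at 369414 to 424751 normalised counts in low-Pax7 glands and at 329755 to 353081 in high-Pax7 glands. Its mean log2 levels overlapped. Pcsk1, the convertase that cuts POMC into corticotropin, had 0.46 (SE 0.18), the granin gene Chgb 0.34 (SE 0.09) and Scg3 0.24 (SE 0.07), none of them called. In the 17 genes of dopamine and GABA receptors limma and edgeR called 0, and DESeq2 called 3 lower, Drd2 again among them. There 4 genes were lower and 1 higher at a raw limma p under 0.05. The GABA receptor subunit genes Gabrg1 and Gabra3 had log2 differences of -1.15 (SE 0.19) and -1.03 (SE 0.21). Of the 10 genes of corticotroph signalling limma and edgeR called 0, and DESeq2 called 1 lower, Tbx19, which is also on the melanotroph list. In this list 1 gene was lower and 1 higher at a raw limma p under 0.05, and the median was 0.17, with Il6st at -0.23 (SE 0.12).

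Limma and edgeR called 0 genes in the lists of 8 other cell types. The fibroblast list (8 of 9 genes tested) had a median log2 difference of -0.52, with Lum at -1.40 (SE 0.31) and Col1a1 at -1.06 (SE 0.23), and its summed level was 14378 to 19601 normalised counts in low-Pax7 glands and 15726 to 24306 in high-Pax7 glands. The summed endothelial list was at 9341 to 9998 in low-Pax7 glands and at 10967 to 13158 in high-Pax7 glands, with a median log2 difference of -0.20 over its 10 genes. Its largest member was Esm1 (-2.21, SE 0.39), a gene of endothelial tip cells, followed by the VEGF receptor gene Flt1 (-0.66, SE 0.12). The summed immune list overlapped between the sides, with a median of -0.21 over 12 genes, Csf1r at -0.82 (SE 0.23) and Cx3cr1 at -0.66 (SE 0.19). In the stem and marginal zone list of 14 genes the median was -0.16, with Sox9 at -0.84 (SE 0.18) and Prrx1 at -0.53 (SE 0.14).

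The list of pericytes and smooth muscle (9 genes) had a median of -0.20, with Acta2 at -0.71 (SE 0.24) and Myh11 at -0.61 (SE 0.21). Of the oligodendrocyte list 4 of 8 genes were tested, with a median of -0.30. The erythrocyte list had a median of -0.00327, and 1 of the 8 genes of the hypothalamic list was tested. DESeq2 called 2 genes lower in each of the fibroblast, endothelial, immune and stem lists and 0 in the other 4. At a raw limma p under 0.05 there were 4 fibroblast, 4 endothelial, 2 immune, 5 stem, 3 pericyte and 1 erythrocyte genes, all lower, where 6.06% of all genes tested had such a p in the lower direction. The immune and erythrocyte counts (2 of 12 and 1 of 6) are too small to be set apart from that share. Their part in the differences above was not tested.

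Immediate early genes differed between glands of one side. Their summed level was 3890, 25943 and 16075 normalised counts in low-Pax7 glands 1, 4 and 6, against 6327, 7315 and 8567 in high-Pax7 glands 2, 3 and 5. The median log2 difference of the 10 genes was 0.61, with Egr2 at 1.97 (SE 0.52) and Egr3 at -2.12 (SE 0.45), which have opposite signs. Limma and edgeR called 0 of them, DESeq2 called 1 in each direction, and 1 in each direction had a raw limma p under 0.05. Of 81 genes for cytosolic ribosomal proteins, 77 lay above 0, with a median of 0.10. They took 2.28%, 2.62% and 2.36% of the counts in low-Pax7 glands 1, 4 and 6, against 2.06%, 2.73% and 2.19% in high-Pax7 glands 2, 3 and 5. The 12 mitochondrially encoded genes had a median of 0.10. In both lists limma, edgeR and DESeq2 called 0 genes, and 0 had a raw limma p under 0.05. The part of these levels in the differences was not tested.

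The 6 mimic glands were not used to sort the vehicle glands, and they allow a test of whether the same transcripts follow Pax7 over its narrower range there. Limma-trend of log2(normalised count + 1) against the log2 of Pax7 in the same gland called 7 of 18393 genes with a positive slope (0.0381%) and 0 with a negative slope. The genes with a raw p under 0.05 numbered 1623 (8.82%), edgeR called 7 positive and 0 negative, and DESeq2 called 115 positive (0.795% of 14470 with an adjusted p) and 50 negative (0.346%). All 7 genes called by limma were also called by edgeR and by DESeq2. They were Pomc, Oacyl, Pcsk2, Col19a1, Cdh13, Gulo and Sema3e.

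Pomc rose with Pax7 in the mimic glands by 1.31 on the log2 scale per log2 unit of Pax7 (SE 0.07, limma adjusted p 0.000401). Its normalised counts there ran from 125740 over a median of 301607 to 606984. Oacyl rose by 1.06 (SE 0.10, limma adjusted p 0.0237) and Pcsk2 by 0.86 (SE 0.09, limma adjusted p 0.0302). Pax7, Pomc, Oacyl and Pcsk2 were all lowest in mimic 1 and highest in mimic 4. The number of calls rested on single glands: without mimic 1 limma called 0 genes, 1188 had a raw p under 0.05, with an adjusted p of 0.0763 for Pomc. Limma called 3 genes without mimic 2, 1 without mimic 3, 6 without mimic 4 (1 of them among the 7), 1 without mimic 5 and 2 without mimic 6. Pomc stayed called in each of these fits but the one without mimic 1. Oacyl was called only without mimic 2 or mimic 6, with limma adjusted p from 0.0596 to 0.632 in the other fits. Pcsk2 was called only without mimic 2, with limma adjusted p from 0.0643 to 0.632 in the others.

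The other 4 genes are not classical melanotroph markers on the list. Col19a1, a collagen gene, rose with Pax7 by 1.09 per log2 unit (SE 0.12, limma adjusted p 0.0302). In the vehicle glands it had 36.1, 58.8 and 31.4 normalised counts in low-Pax7 glands 1, 4 and 6, against 257.8, 173.5 and 336.8 in high-Pax7 glands 2, 3 and 5. Gulo, whose enzyme makes the last step of vitamin C synthesis in mice, rose by 0.83 (SE 0.10, limma adjusted p 0.0407). In the vehicle glands it had 85.1, 279.1 and 99.7 in low-Pax7 glands 1, 4 and 6, against 723.9, 826.0 and 1273 in high-Pax7 glands 2, 3 and 5. Cdh13, the gene of T-cadherin, rose by 0.94 (SE 0.11, limma adjusted p 0.0407) and the secreted semaphorin gene Sema3e by 0.68 (SE 0.08, limma adjusted p 0.0407). All 3 low-Pax7 glands lay below every high-Pax7 gland for both, with log2 differences of -0.95 (SE 0.18) for Cdh13 and -1.56 (SE 0.26) for Sema3e, but neither was called in the vehicle glands.

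Across the 6 mimic glands 3 of the 5 markers passed an exact permutation test of their correlation with Pax7. Pearson's r with Pax7 on log2 values was 0.995 for Pomc (exact p 0.00278, adjusted over the 5 markers 0.00695), with a Spearman's rho of 0.943 (exact p 0.0167, adjusted 0.0278). For Oacyl r was 0.973 (exact p 0.00139, adjusted 0.00695) and rho 1 (exact p 0.00278, adjusted 0.0139), and for Pcsk2 r was 0.969 (exact p 0.00556, adjusted 0.00927) and rho 0.943 (exact p 0.0167, adjusted 0.0278). Scn7a had r 0.704 (exact p 0.149, adjusted 0.186) and rho 0.486 (exact p 0.356, adjusted 0.356). Col25a1 had r 0.654 (exact p 0.188, adjusted 0.188) and rho 0.714 (exact p 0.136, adjusted 0.17). Without mimic 1 and mimic 4, the 2 glands farthest from the median of Pax7, r was 0.961 for Pomc, 0.825 for Oacyl and 0.776 for Pcsk2, against 0.39 for Scn7a and 0.455 for Col25a1. A p above the threshold with 6 glands does not show that Scn7a and Col25a1 were unrelated to Pax7.

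The slopes of Scn7a and Col25a1 on Pax7 in the mimic glands were 0.30 (SE 0.12, limma adjusted p 0.511) and 0.36 (SE 0.15, limma adjusted p 0.549). Their levels in mimic glands ran from 3458 over a median of 3761 to 5379 normalised counts for Scn7a and from 1999 over 2352 to 3737 for Col25a1. All 6 mimic glands thus stood above every low-Pax7 gland for both genes. Gja1 had a slope of -0.03 (SE 0.14, limma adjusted p 0.961) and Rax of 0.37 (SE 0.18, limma adjusted p 0.597). Over the pituicyte list the median slope was 0.18 with 0 of 15 genes called by limma and 4 at a raw p under 0.05. Over the melanotroph list the median was 0.43 with 3 of 10 called, namely the markers Pomc, Oacyl and Pcsk2, and 6 at a raw p under 0.05. Over all genes in the mimic trend the median slope was 0.000222, and 8.82% had a raw p under 0.05.

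A single fit over all 12 glands, chosen after the data were seen, compared the slopes on Pax7 directly. The mimic minus vehicle difference of slopes was -1.35 for Scn7a (SE 0.59, limma adjusted p 0.905) and -0.68 for Col25a1 (SE 0.58, limma adjusted p 0.931). It was 0.60 for Pomc (SE 0.21, limma adjusted p 0.887), 0.40 for Pcsk2 (SE 0.17, limma adjusted p 0.899) and 0.08 for Oacyl (SE 0.22, limma adjusted p 0.983). Limma called 0 of 18389 genes for this difference, with a smallest adjusted p of 0.777 and 1000 genes below a raw p of 0.05, and no other tool was run on it. The slopes are therefore not shown to differ between mimic and vehicle glands.

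**Figure D5:**
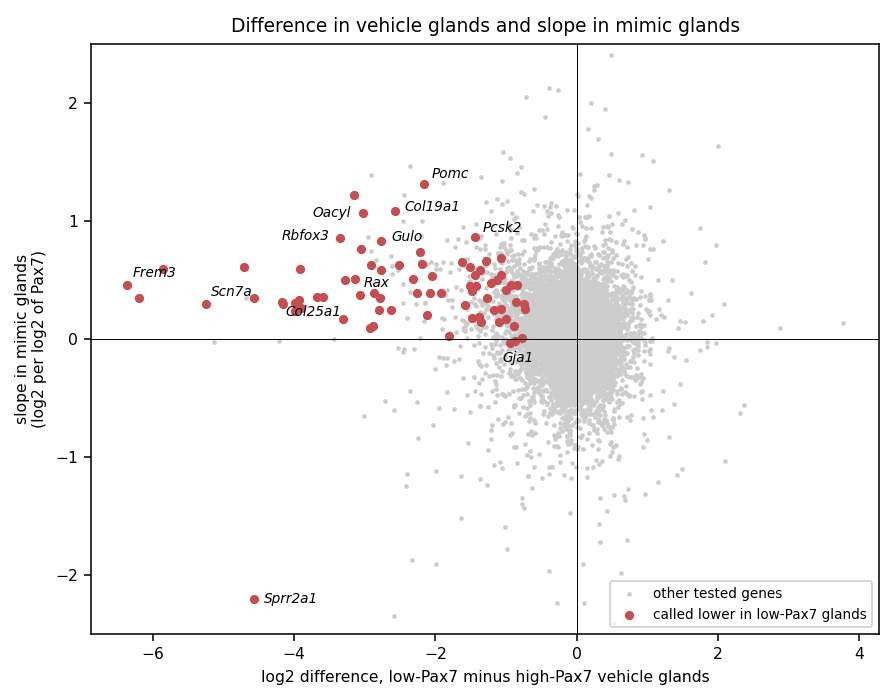
Slope on log2 Pax7 in the 6 mimic glands (vertical axis) against the log2 difference of low-Pax7 minus high-Pax7 vehicle glands (horizontal axis), 1 point per gene, red where the gene was called lower in low-Pax7 glands; 19 genes with slopes beyond 2.5 in either direction are not drawn. Pomc had -2.16 and 1.31, and Scn7a had -5.25 and 0.30.

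Of the 79 genes called lower in low-Pax7 vehicle glands, 78 were measured in the mimic trend. A slope above 0 was found for 75 of them (96.2%, against 50.1% of all genes), and the median slope was 0.39. For 42 the slope was positive with a raw p under 0.05 (53.8%, against 4.86% of all genes). All of these slopes come from the same 6 glands, so the genes are not independent of each other. Mimic 4, the gland with the most Pax7, stood apart for Col25a1, Fgf10, Gli3, Cdh19, Col13a1, Col23a1, Ism2 and Kcnh1. These counts are not given with a gland left out. Limma called 5 of the 79 in the mimic trend, which is 6.33% of them and 71.4% of the 7 genes called in mimic glands. The median slope was 0.52 for those with their highest value in vehicle 5 and 0.34 for those with their highest value in vehicle 3. The exceptions below 0, named after their values were seen, were Gja1, Plcl1 and Sprr2a1, the last at -2.21 (SE 1.16) on counts of 28.6 or less.

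The 79 genes were chosen for being low in the low-Pax7 glands, so their levels beside the mimic glands are a description. For 77 of the 79 all 3 low-Pax7 glands lay below the lowest mimic gland (97.5%, against 3.33% of all genes tested). Vehicle 2 lay within the range of the mimic glands for 68 of the 79 and above it for 5. Vehicle 3 lay above that range for 47 and vehicle 5 for 50, and each of them lay within it for 29. Of all genes tested, vehicle 3 lay above it for 19.6% and vehicle 5 for 12.2%. For vehicle 2, and for the counts within the range, no such share is given, so they cannot be read as a likeness to the mimic glands. Of the 100 genes that varied most over the 6 vehicle glands, at a mean of at least 50, limma called 35 lower and 0 higher. The sides did not overlap in the lower direction for 53 and in the higher direction for 4. Over all genes tested 0.431% and 0.0109% were called, and 7.48% and 6.63% did not overlap. The 100 were chosen for their spread over the same 6 glands, so these counts are a description too.

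Promoter windows from RefSeq on GRCm38.p6, from 250 bases before to 50 after the start of a gene, were searched on both strands for 3 motifs. These were the paired homeodomain palindrome (TAAT and ATTA with any 2 bases between), the T-box site TCACACC and the cyclic AMP response element TGACGTCA. Of the 79 genes called lower 52 had a window, and 0 of these held any of the 3. Of all 32851 windows of 300 bases, 0.39%, 3.98% and 1.79% held the palindrome, the T-box site and the cyclic AMP response element. No match says only that these letters are not in these windows.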

How the data were processed

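Per the labels' protocols, RNA was extracted with Trizol and a column kit, and the libraries were stranded, after depletion of rRNA. Per the submitters' processing notes, the tools were Trimmomatic 0.39, kallisto 0.50.1, FastQC 0.12.1, MultiQC 1.28 and DESeq2 1.48.2, with the build GRCm39. The values deposited by the authors are a signal per gene, normalised read counts, for 18497 named genes in 12 columns. In each column all values (100%) were whole multiples of 1 step, within 0.001, which gave the recovered reads. A row with no gene name (0.0359% to 0.0567% of reads) was left out. How reads shared by overlapping or near-identical genes were divided can move their values.

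From these values, genes with 10 or more in at least 3 of the 6 glands fitted were tested with limma-trend (limma 3.58.1, R 4.3.3) on log2(value + 1), a scale that understates changes of low genes. edgeR 4.0.16 and DESeq2 1.42.0 were run on recovered reads, where DESeq2 gave no adjusted p for 1078 genes in vehicle glands and 3923 in mimic glands. Named genes were the 6 markers, up to 15 per direction with the largest called differences at a mean of at least 50 (filled by smallest p), 4 members per list and the hormone genes. The glands, the lists and the tests were chosen with earlier results of these data known. Litter is not in the labels, so p-values measure only the spread among these glands. No vehicle library was a copy of another vehicle library (lowest chi-square per degree of freedom between them 23.4). This comparison covered pairs of the 6 vehicle libraries only. Alternatives were pseudocounts of 0.5 and 5, no filter, a minimum of 50, TMM, quantile normalisation, edgeR, DESeq2, Pax7 as a continuous covariate, and leaving out each gland. Some results are not reported here.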

Additional observations from a re-analysis of the deposited data

Results flagged for a closer look

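Of 173 sets of gland values checked for the genes named (the vehicle or the mimic group of a gene), 14 held 1 gland far from the rest. A rate of 1 in 20 would give 8.65, but the sets share glands, and many genes were named for their vehicle values. The 14 and the 8.65 therefore make no test. In mimic 4, the mimic gland with the most Pax7, Col25a1 stood at 3737 normalised counts (other mimic glands 1999 to 2430), Fgf10 at 983.3 (348.1 to 487.7) and Gli3 at 589.3 (235.2 to 322.4). The same gland was high for Cdh19 at 315 (156.6 to 195.8), Col13a1 at 1076 (657.7 to 738.7), Col23a1 at 1100 (653.7 to 793.3), Ism2 at 222.4 (120.7 to 157.5) and Kcnh1 at 988.9 (601.2 to 728.1). It was low for Tshb at 3816 (5863 to 6697). All of these genes except Tshb were called lower in low-Pax7 vehicle glands.

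Col1a1 stood at 7746 in mimic 1 (805.8 to 2127 in the others), Flt1 at 4081 in mimic 2 (837.7 to 1244), Gabrg1 at 245.5 in mimic 2 (175.9 to 192.4) and Col9a3 at 82.81 in mimic 5 (52.42 to 63.28). Lhb stood at 21930 in vehicle 4, a low-Pax7 gland (8453 to 12820 in the other vehicle glands).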

How the results depend on the processing

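The genes called lower in low-Pax7 glands (79) numbered 40 with quantile normalisation, 406 with DESeq2, and 0 to 151 when 1 vehicle gland was left out. Those called higher (2) numbered 97 with DESeq2, 0 with Pax7 as a continuous covariate (where 63 were called lower, 26 of them among the 79), and 0 to 5 when 1 vehicle gland was left out. Other settings gave 69 to 83 lower and 2 higher. Positive trends in mimic glands (7) numbered 115 with DESeq2 and 0 to 6 when 1 mimic gland was left out, and negative ones (0) numbered 50 with DESeq2. When 1 gland was left out, the slope of Col25a1 in mimic glands ran from -0.007974 (without mimic 4) to 0.7017 and its r from -0.03098 to 0.8723. The difference of slopes of Oacyl ran from -0.04882 to 0.1279, below 0 without vehicle 6 or mimic 1, and the log2 difference of Pcsk1n from -0.2638 to 0.1057 (without vehicle 1). The cause of these changes was not tested. No other gene value, count, share or correlation recomputed changed sign. Over all single-gene values and settings, left-out glands included, 256 lost a call and 48 gained one. No paired analysis was possible because both sides lie within the vehicle group and share no replicate number. With 3 glands a side, differences near the median SE of 0.159 could not be called.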
